A study of Rattus norvegicus with 35 samples.

Results

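Propiconazole and triadimefon are triazole fungicides, made to block the fungal form of Cyp51, the lanosterol demethylase of sterol synthesis. The 2 compounds share the triazole ring and a chlorinated aromatic ring. Propiconazole carries a dioxolane ring (a cyclic ketal) whose ketal carbon bears a dichlorophenyl group, and triadimefon is a ketone with a tert-butyl group and a chlorophenoxy ether. The arrays compared here are the 3 of hepatocytes exposed to propiconazole at 100 uM and the 3 of hepatocytes exposed to triadimefon at 100 uM, chosen by the compound and dose in their labels, out of 35 arrays in 12 groups. The cells were primary rat hepatocytes, liver cells taken from the animal and kept in culture, and every group was exposed for 72 h through the medium. The other arrays whose values are given are the same compounds at 10 and 30 uM (3 arrays each) and the vehicle, DMSO at 0.1% (3 arrays). The remaining arrays are of myclobutanil (10, 30 and 100 uM), phenobarbital (200 uM) and the compound labelled PCN (30 uM). They also entered the fit described below, so its SEs and calls rest on them too. The labels give each array 1 of 3 codes, Rs256, Rs293 or Rs304. Each group of propiconazole, triadimefon and DMSO holds every code once, and values of 3 arrays below stand in that order. The PCN group has no Rs256 array. The labels call the arrays of a group biological replicates and do not say what the code marks, nor the strain, sex or age of the rats.

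Fatty acids enter the mitochondria and peroxisomes of the hepatocyte for beta-oxidation, and the Cyp4a enzymes hydroxylate their far end. Many genes of these routes are known targets of PPARalpha, a nuclear receptor that fatty acids activate. Foreign compounds are oxidised by P450 enzymes, largely under the receptors CAR and PXR, and conjugated by transferases. Oxidant stress acts on liver genes through NRF2, and stress of the endoplasmic reticulum and amino acid shortage act through ATF4 and Ddit3.

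A level below is a quantile-normalized value of the deposited log scale, whose base the sources used here do not give, so differences are in units of that scale and not folds. On the manufacturer's control transcripts a doubling took 0.487 ± 0.0241 units (SD, 35 arrays) if bioC, bioD and cre were added at the usual 5, 25 and 100 pM. A gene was called when its Benjamini-Hochberg adjusted p in limma lay below 0.05, in a fit over all 35 arrays that held the code as a block, and rose or fell is used only of called genes.

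Propiconazole differed from triadimefon at 100 uM in 481 of 10490 genes tested (4.59%), of which 265 were higher (2.53%) and 216 were lower (2.06%) with propiconazole. Counts of called genes in the lists below are to be read beside these shares of all genes. The direction was the same within all 3 codes for 474 of the 481 genes, against 35.4% of all genes tested. The genes were called within the code on these same arrays, so this agreement follows from the selection and is no separate support. An unadjusted p under 0.05 was found for 1812 genes, and for 763 without the block, where 524 would be expected from evenly spread p-values. The same fit gave 33 such genes at 10 uM and 210 at 30 uM, both below 524. That number is thus no firm reference for this fit, and 1812 against 524 does not measure the excess of changed genes. Only 28 called differences were over 0.5 units in size, and the median size was 0.22. Without the block 53 genes were called (0.505%), 28 higher (0.267%) and 25 lower (0.238%). On the values as deposited 69 genes were called, of which 57 were higher and 12 lower, so that 82.6% of the calls were higher there against 55.1% above, and median centring gave 75 higher and 13 lower. The 6 arrays alone with the block gave 99 higher and 177 lower, and the fit without Rs293 gave 48 higher and 101 lower. The balance of direction thus depends on the setting. Of the 481 genes, 2 had the other sign on the values as deposited. The 3 arrays of one compound lay apart from the 3 of the other, with no overlap, for 11.8% of all genes tested (5.6% higher and 6.18% lower), so a lack of overlap is common among them. With p-values adjusted over the 3 doses together 237 genes were called. Called genes over 0.25 units in size numbered 76 higher and 109 lower.

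**Figure D1:**
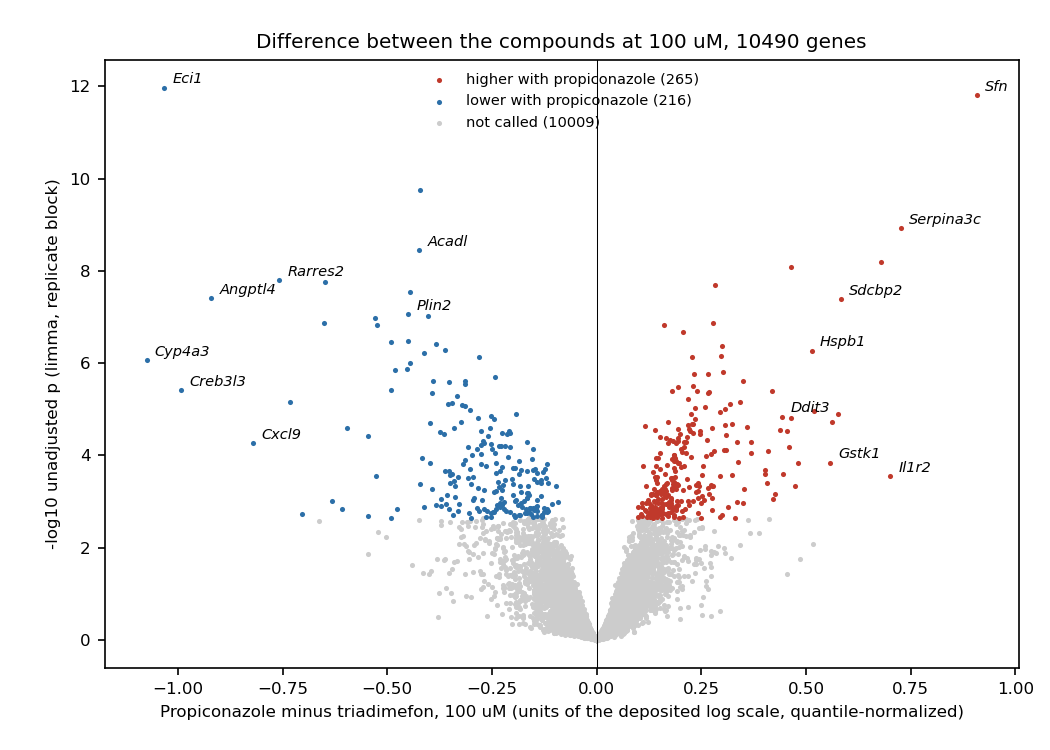
Each point is a gene, with its difference (propiconazole minus triadimefon at 100 uM, units of the log scale) on the horizontal axis and minus log10 of its unadjusted limma p on the vertical axis. Eci1 at -1.03 and Sfn at 0.91 stand highest, and the lower side holds the larger differences of Cyp4a3, Creb3l3 and Angptl4.

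The called genes of fatty acid oxidation were all lower with propiconazole than with triadimefon, and Eci1, Decr1 and Ehhadh stood among the 12 largest lower differences of the comparison. Of 25 mitochondrial oxidation genes tested, 10 fell and 0 rose, with a median difference of -0.23 and 23 of 25 below 0, beside a median of -0.00 over all genes. Of 18 peroxisomal oxidation genes 8 fell and 0 rose, with a median of -0.20. The mitochondrial median lay between -0.22 and -0.27 without each code in turn, without the block and on the values as deposited, median-centred or scaled. The number that fell was 6 without the block, between 4 and 10 without each code and 1 on the values as deposited. For the peroxisomal genes the median lay between -0.17 and -0.24 in the same alternatives and the number that fell between 0 and 4. With scaled arrays other lists were as low, at -0.27 for hepatocyte markers, -0.31 for acute phase proteins and -0.28 for apolipoproteins, while cell cycle genes stood at 0.02. In the main fit the medians of these lists were -0.01, -0.04, -0.06 and 0.02 in that order. A low median under the other scalings is thus not particular to oxidation genes.

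Eci1, the mitochondrial isomerase that prepares unsaturated fatty acids for oxidation, had levels of 1.27, 1.23 and 1.49 with propiconazole, against 2.20, 2.38 and 2.51 with triadimefon and 2.65, 2.91 and 3.05 with DMSO. All 3 propiconazole arrays lay below all 3 triadimefon arrays, and those below all 3 DMSO arrays. The difference between the compounds was -1.03 (SE 0.08, adjusted p 8.2e-09), and Eci1 fell by 1.54 with propiconazole and by 0.50 with triadimefon against DMSO. Decr1, the dienoyl-CoA reductase of the same route, had levels of 1.19, 1.21 and 1.44 with propiconazole and 1.78, 1.93 and 2.07 with triadimefon, with a difference of -0.65 (SE 0.08, adjusted p 2e-05). These 2 groups did not overlap either. Acadl, the long-chain acyl-CoA dehydrogenase, stood at 2.20, 2.18 and 2.28 with propiconazole and 2.54, 2.67 and 2.73 with triadimefon, a difference of -0.42 (adjusted p 7.53e-06). The other mitochondrial genes that fell were Hadh (-0.45), Acaa2 (-0.41), Etfdh (-0.33), Eci2 (-0.32), Cpt2 (-0.31), Acadvl (-0.23) and Hadha (-0.19), which cover the carnitine shuttle, the dehydrogenases and the thiolase of the spiral. Cpt1a, the shuttle's rate-controlling enzyme, had levels of 0.21, 0.23 and 0.26 with propiconazole and 0.50, 0.62 and 0.77 with triadimefon, without overlap, but its difference of -0.40 was not called (adjusted p 0.228). Pdk4, the kinase that inhibits pyruvate dehydrogenase, was not called either, at -0.55 (95% interval -0.97 to -0.12).

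In the peroxisome Ehhadh, the bifunctional enzyme, had levels of 0.23, 0.32 and 0.14 with propiconazole and 0.83, 0.81 and 0.95 with triadimefon, a difference of -0.63 (SE 0.17, adjusted p 0.031). Hsd17b4, the other bifunctional enzyme, differed by -0.35 (SE 0.06, adjusted p 0.000638) and was one of the genes called without the block as well. The groups did not overlap for either of them. Ech1 differed by -0.37, Pecr by -0.31, Abcd3, a fatty acid importer of the membrane, by -0.28, Acot4 by -0.27, Pex19, a chaperone for membrane proteins, by -0.24 and Acot8 by -0.17. Acat1, a thiolase of ketone body synthesis, differed by -0.30 and was the only called gene of 3 tested in the ketogenesis list, the others being Bdh1, of the last step, and the hormone Fgf21. A dimmer probe set of Acat1 gave -0.08 (SE 0.05). Slc27a2, which takes up and activates very long-chain fatty acids, had levels of 1.05, 1.32 and 1.46 with propiconazole, 1.65, 1.77 and 2.05 with triadimefon and 2.54, 2.58 and 2.87 with DMSO, so the compounds lay in order below the vehicle. It was the only called gene of 11 for fatty acid uptake. Fabp1, the liver fatty acid binding protein, had levels of 0.23, 0.22 and 0.35 with propiconazole and 0.85, 0.89 and 1.05 with triadimefon. Its difference of -0.66 (95% interval -1.07 to -0.25) missed the threshold at an adjusted p of 0.0542 although the groups did not overlap.

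Of 9 omega hydroxylase genes 2 fell, both of the Cyp4a subfamily, and 0 rose. Cyp4a3 had levels of 0.84, 0.72 and 0.75 with propiconazole, against 1.88, 1.86 and 1.80 with triadimefon and 2.73, 2.73 and 2.89 with DMSO. The arrays of each group lay close to each other and the 3 groups did not overlap. The difference between the compounds of -1.07 (SE 0.17, adjusted p 0.000287) was the largest of all called genes in either direction. Cyp4a1 had levels of -0.19, -0.07 and -0.12 with propiconazole and 0.04, 0.76 and 0.92 with triadimefon, and the Rs256 triadimefon array lay nearer the propiconazole arrays than the other arrays of its own group. Its difference was -0.70 (SE 0.20, adjusted p 0.0439), with -1.91 for propiconazole and -1.20 for triadimefon against DMSO. An Affymetrix probe set can report close relatives together, so the 2 Cyp4a genes may share signal.

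Among 16 secreted factors and regulators tied to PPARalpha, 4 fell and 1 rose. Angptl4, a secreted inhibitor of lipoprotein lipase, had levels of 0.29, 0.31 and 0.25 with propiconazole, 1.06, 1.39 and 1.16 with triadimefon and 2.14, 2.21 and 2.07 with DMSO, and the 3 groups did not overlap. The compounds differed by -0.92 (SE 0.12, adjusted p 3.26e-05). Creb3l3, a membrane-bound transcription factor of the liver, had levels of 1.17, 0.35 and 0.72 with propiconazole and 1.68, 1.59 and 1.95 with triadimefon, a difference of -0.99 (SE 0.17, adjusted p 0.000834). Vnn1, a pantetheinase, differed by -0.65 (SE 0.09) with levels of 0.05, 0.50 and 0.41 with propiconazole and 0.67, 1.10 and 1.15 with triadimefon. Within every code the propiconazole array was the lower for all of these genes. Plin2, a coat protein of lipid droplets, had levels of 2.87, 2.89 and 2.78 with propiconazole and 3.26, 3.32 and 3.31 with triadimefon, a difference of -0.45 (adjusted p 6.56e-05). It fell against DMSO with propiconazole (-0.56), and with triadimefon it stood -0.12 from DMSO with an adjusted p of 0.245. A much dimmer Plin2 probe set gave -0.07 (SE 0.08) between the compounds. The member that rose was Pparg (0.16), the related receptor of fat storage. Fgf21, a fasting hormone, differed by -0.29 and was not called (adjusted p 0.109).

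**Figure D2:**
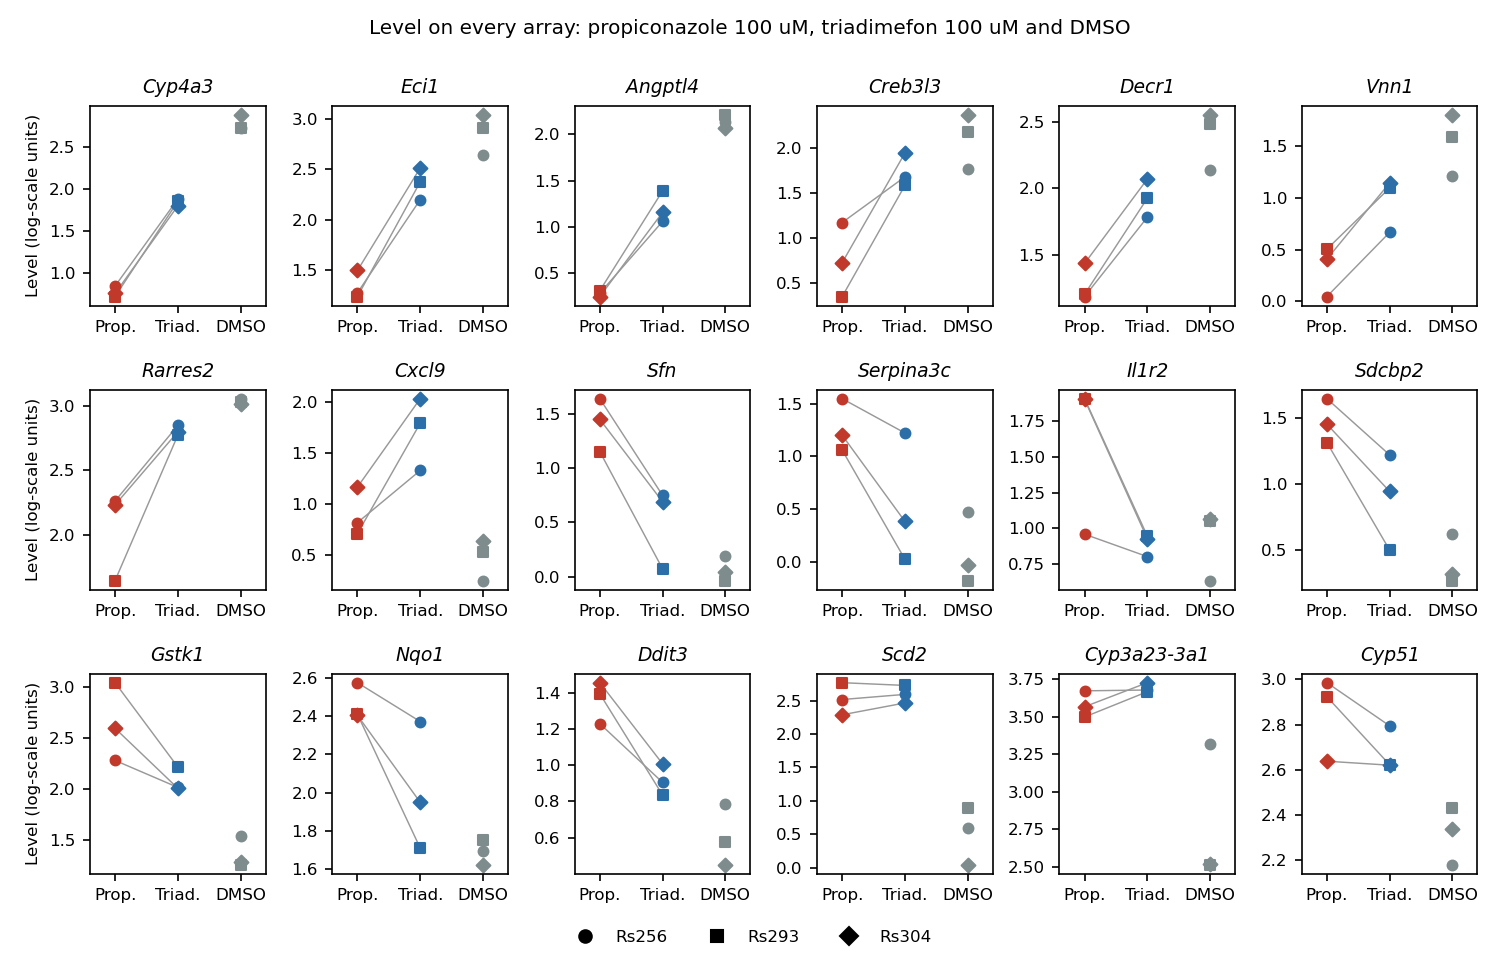
Levels of 18 genes (units of the log scale) on the 3 arrays of propiconazole at 100 uM (red), triadimefon at 100 uM (blue) and DMSO (grey), with a marker for each code and a line joining the 2 compounds within a code; each panel has its own vertical scale. For Cyp4a3, Eci1, Angptl4, Decr1 and Vnn1 the propiconazole arrays are lowest and the DMSO arrays highest, and for Scd2 and Cyp3a23-3a1 the compounds lie close together above DMSO.

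The promoters of genes that fell together in these lists were searched for a pair of AGGTCA sites with 1 base between them, the binding element of PPARalpha with its partner RXR, with any base allowed at the 4th position of each site (AGGNCANAGGNCA, both strands). The lists are those above of mitochondrial and peroxisomal oxidation, ketogenesis, uptake, omega hydroxylases and PPARalpha factors. RefSeq promoters of the rat assembly GRCr8, 250 bases before to 50 bases after the start site, were on hand for 68 of their tested genes and 20 of those that fell. The element occurred in 0.412% of all 27457 promoters and 0.365% of those of genes tested, in 1 of the 68 and in 0 of the 20, which says only that these letters are not in these windows. The match lay in Fabp1 on the reverse strand, its first base 77 bases before the start site. Its promoter is shown because it is the only one of those lists with the element, which stands in capitals (chr4:104749090-104749389, + strand).
Fabp1: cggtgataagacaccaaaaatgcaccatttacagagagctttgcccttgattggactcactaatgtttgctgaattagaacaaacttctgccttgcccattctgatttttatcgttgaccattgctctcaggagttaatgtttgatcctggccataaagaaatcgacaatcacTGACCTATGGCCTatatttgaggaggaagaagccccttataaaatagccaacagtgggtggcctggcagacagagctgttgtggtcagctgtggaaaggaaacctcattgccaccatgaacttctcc

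The leading genes on the other side, higher with propiconazole, came from several functions. Sfn, the 14-3-3 sigma protein that holds the cell cycle, had levels of 1.64, 1.15 and 1.45 with propiconazole, against 0.75, 0.07 and 0.69 with triadimefon and 0.19, -0.04 and 0.04 with DMSO. The difference of 0.91 (SE 0.07, adjusted p 8.2e-09) was the largest positive one of the called genes, and within each code the order was propiconazole, triadimefon, DMSO. Of 19 p53 targets and growth arrest genes, Sfn and Tp53inp1 (0.25), a stress-induced regulator of autophagy and apoptosis, were the 2 that rose, and 0 fell. Cdkn1a, the classic p53 target that arrests the cell cycle, had levels of 1.94, 1.53 and 1.46 with propiconazole and 1.75, 1.71 and 1.70 with triadimefon. It was not called (-0.08, 95% interval -0.29 to 0.13), and a dimmer probe set went the other way, at 0.18 (SE 0.08, unadjusted p 0.0323). Of 18 cell cycle genes 2 rose, the replication genes Pcna (0.16) and Mcm4 (0.17). Among 22 apoptosis regulators 0 were called by limma, and 3 had an unadjusted p under 0.05.

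Serpina3c, a serine protease inhibitor secreted by the liver, had levels of 1.55, 1.06 and 1.20 with propiconazole and 1.22, 0.02 and 0.38 with triadimefon. The groups overlapped through the Rs256 triadimefon array, while the propiconazole array was the higher in each code, and the difference was 0.73 (SE 0.08, adjusted p 3.15e-06, and 0.475 without the block). Its close relative Serpina3l, which may share signal with it, differed by 0.68 (SE 0.08). Il1r2, the decoy receptor that binds interleukin 1 without a signal, had levels of 0.96, 1.91 and 1.90 with propiconazole and 0.80, 0.94 and 0.93 with triadimefon. The Rs256 pair lay close together and the other 2 pairs far apart, and the difference was 0.70 (SE 0.17, adjusted p 0.0133). Sdcbp2, a scaffold protein of the syntenin family, had levels of 1.65, 1.32 and 1.46 with propiconazole and 1.22, 0.50 and 0.95 with triadimefon, a difference of 0.58 (SE 0.07, adjusted p 3.26e-05). Oxct1, the enzyme with which tissues other than liver use ketone bodies, had levels of 0.18, 1.29 and 1.07 with propiconazole and 0.09, 0.46 and 0.25 with triadimefon, a difference of 0.58. As with Il1r2 the Rs256 pair differed least. Anpep, aminopeptidase N of the canalicular membrane, differed by 0.52 (SE 0.09, adjusted p 0.00171). Against DMSO Anpep rose with propiconazole (0.40) and stood at -0.12 with triadimefon, which was not called. Pon1, a serum esterase carried on HDL, differed by 0.47 and Dnase2b, an acid DNase, by 0.56. A dimmer Pon1 probe set gave 0.01 (SE 0.04).

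In the list of NRF2 genes 3 of 25 rose and 0 fell, with a median difference of 0.06. On the values as deposited, median-centred or scaled the median was 0.01 to 0.02 and 0 of the 25 were called, as without the block and without Rs304, while without Rs256 4 rose and 2 fell. Nqo1, a quinone reductase that both NRF2 and AhR induce, had levels of 2.58, 2.41 and 2.40 with propiconazole, 2.37, 1.71 and 1.95 with triadimefon and 1.69, 1.75 and 1.62 with DMSO. The difference was 0.45 (SE 0.09, adjusted p 0.0031), and the propiconazole arrays lay above the triadimefon arrays without overlap. Akr7a3, an aldehyde reductase known for aflatoxin, differed by 0.44 and Gclm, the modifier subunit of glutathione synthesis, by 0.37 (adjusted p 0.00619). Gclc, the catalytic subunit, had levels of 1.98, 1.58 and 1.47 with propiconazole and 2.09, 1.46 and 1.51 with triadimefon, and its difference of -0.01 was not called (95% interval -0.17 to 0.15). Hmox1, heme oxygenase, had levels of 3.33, 2.61 and 2.52 with propiconazole and 3.02, 2.20 and 2.16 with triadimefon and missed the threshold, at 0.36 (adjusted p 0.0523). Also not called were Gstp1 at 0.52 (95% interval 0.15 to 0.89), Akr1b8 at 0.49 (0.09 to 0.88), Srxn1 at 0.16 (0.01 to 0.31) and Abcc3 at -0.01 (-0.18 to 0.17). Other probe sets gave larger differences, of 0.49 (SE 0.13, unadjusted p 0.000753) for Srxn1 and 0.14 (SE 0.08, unadjusted p 0.0813) for Gclc. Of 9 AhR genes Nqo1 and Tiparp (0.28), a feedback regulator of AhR, rose, and Cyp1a1, the P450 that AhR induces most strongly, had levels of 3.25, 3.39 and 3.34 with propiconazole and 3.26, 3.15 and 3.09 with triadimefon and was not called (0.16, 95% interval -0.02 to 0.34).

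The antioxidant element TGACNNNGC (both strands) was found in 12.2% of all promoters, in 14.9% of those of genes tested, in 3 of 22 promoters of the NRF2 list (13.6%) and, among its 3 genes that rose, in Gclm. The Gclm promoter is shown as the raised member with the element, which lies on the reverse strand with its first base 172 bases before the start site and stands in capitals (chr2:213031885-213032184, + strand).
Gclm: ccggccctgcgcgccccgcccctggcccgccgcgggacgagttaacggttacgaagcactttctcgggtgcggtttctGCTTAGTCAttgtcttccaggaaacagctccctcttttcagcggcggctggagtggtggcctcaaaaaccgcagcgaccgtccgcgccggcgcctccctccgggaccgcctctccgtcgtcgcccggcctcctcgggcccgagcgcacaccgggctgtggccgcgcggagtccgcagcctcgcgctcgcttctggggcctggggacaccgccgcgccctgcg

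In the endoplasmic reticulum stress list 3 of 35 genes rose and 0 fell. Ddit3, the CHOP factor that is induced late in that stress, had levels of 1.23, 1.39 and 1.46 with propiconazole, 0.91, 0.84 and 1.01 with triadimefon and 0.78, 0.57 and 0.45 with DMSO, without overlap. The difference was 0.44 (SE 0.08, adjusted p 0.00205) and was called without the block as well (adjusted p 0.0393). Dnajc3, a co-chaperone and kinase inhibitor, differed by 0.22 and Derl1, of the degradation channel, by 0.14. The other 2 probe sets of Derl1 gave 0.10 (SE 0.05) and -0.04 (SE 0.07). Hspa5, the BiP chaperone and main marker of this stress, had levels of 3.20, 3.21 and 3.08 with propiconazole and 3.16, 3.19 and 3.23 with triadimefon and was not called (-0.03, 95% interval -0.17 to 0.11). Neither was Trib3, a pseudokinase that Ddit3 induces, at 0.14 (95% interval -0.04 to 0.31). Of 30 genes for amino acid synthesis and transport under ATF4, 2 transfer RNA synthetase genes rose, Wars1 (0.30) and Sars1 (0.25). Wars1 had levels of 1.27, 1.46 and 1.38 with propiconazole, 0.99, 1.13 and 1.10 with triadimefon and 0.78, 0.90 and 0.80 with DMSO, 3 groups apart from each other. Asns, asparagine synthetase, was not called (0.02, 95% interval -0.09 to 0.13). The median difference of the stress list was 0.01 and turned to -0.06 on the values as deposited, and that of the ATF4 list was 0.05 and turned to -0.05 with scaled arrays. Hspb1, a small heat shock protein, was the 1 gene of 15 chaperones that rose, with levels of 1.26, 1.49 and 1.41 with propiconazole and 0.75, 0.81 and 1.05 with triadimefon, against 0.63, 0.84 and 1.12 with DMSO. Its difference between the compounds was 0.51 (SE 0.08, adjusted p 0.000209).

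The ER stress element, CCAAT and CCACG with 9 bases between them (both strands), lay in 0.0765% of all promoters, in 0.16% of those of genes tested and in 8 of 53 promoters of these 2 lists. Dnajc3 was the 1 of 4 raised members with a promoter on hand that held it, and Hspa5, Calr and Xbp1 hold it too and were not called. The shorter ATF4 element TGATGNAA lay in 13 of the 53 promoters, in 3.82% of all promoters, in 1.99% of those of genes tested and in 0 of the 4. The Dnajc3 promoter is shown for that match, which starts 133 bases before the start site and is in capitals (chr15:102432417-102432716, + strand).
Dnajc3: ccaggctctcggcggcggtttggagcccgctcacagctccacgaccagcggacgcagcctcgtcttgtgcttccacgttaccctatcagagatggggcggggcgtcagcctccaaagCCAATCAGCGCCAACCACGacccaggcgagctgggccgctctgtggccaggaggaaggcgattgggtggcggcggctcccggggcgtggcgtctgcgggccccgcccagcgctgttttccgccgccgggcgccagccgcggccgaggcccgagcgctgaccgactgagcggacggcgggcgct

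Lysosomal genes leaned to the higher side, with 6 of 35 raised and 1 lower and a median difference of 0.08, which turned to -0.01 with scaled arrays. Without the block 0 of the 35 were called. Cd68, a lysosomal membrane protein of macrophages that other cells also make, had levels of 1.02, 0.73 and 1.17 with propiconazole and 0.97, 0.06 and 0.66 with triadimefon, a difference of 0.41 (adjusted p 0.0057). Gpnmb differed by 0.40, Neu1, a sialidase, by 0.30, Ctsb, cathepsin B, by 0.22, Naglu by 0.19 and Ctsl by 0.17. With scaled arrays the Ctsb difference was -0.02. The 1 lower gene, Lpcat3 (-0.28, adjusted p 0.000253), is an acyltransferase of the endoplasmic reticulum that remodels phospholipids and stands in the list by the choice made here. Of 32 phospholipid genes Pla2g12a rose (0.28), and Lpcat3 and Gde1 (-0.24) fell, 3.12% and 6.25% beside 2.53% and 2.06% of all genes. Macrophage markers were read beside these: of 17 on the array 9 were tested, and Cd68 and Cd14 (0.34, not of the same direction in all 3 codes) rose while 0 fell. Of the 9 tested, 4 lay above 0 and 5 below, with a median difference of -0.03. The mean level of the 17 lay between 0.04 and 0.19 on the propiconazole arrays and between -0.01 and 0.19 on the triadimefon arrays. Cybb, Ptprc, C1qc, Tyrobp, C1qa, Adgre1, Itgam, Mrc1 and Cd163 were above the array median on none of the 6 arrays. The part of macrophages in the lysosomal differences was not tested, and fewer cells of a type cannot be told apart from less RNA per cell. Lgals3, a lectin of macrophages and injured epithelium, was the 1 of 42 cytoskeleton and junction genes that rose (0.46), and Vim, the intermediate filament of mesenchymal cells, fell (-0.23). That is 2.38% each way, beside 2.53% higher and 2.06% lower of all genes.

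Several secreted and immune proteins of the hepatocyte were lower with propiconazole. Of 33 complement and coagulation genes 6 fell and 0 rose, with a median of -0.14 that lay between -0.11 and -0.24 in the alternatives, although none was called without the block, as deposited or without Rs304. On the values as deposited the median was -0.20 for these genes and -0.20 for hepatocyte markers, so there it is not particular to complement. C4bpa, a complement inhibitor, had levels of 1.92, 1.48 and 1.51 with propiconazole, 2.41, 2.16 and 2.13 with triadimefon and 2.63, 2.97 and 2.67 with DMSO, a difference of -0.60 (SE 0.12, adjusted p 0.00293). Hrg, a plasma glycoprotein, differed by -0.53, Cpb2, which slows clot breakdown, by -0.27, F12 by -0.25, C3 by -0.25 and Serpinc1, antithrombin, by -0.19. In the acute phase list the inhibitor subunits Itih2 (-0.40) and Itih1 (-0.21) fell beside the rise of Serpina3c, 3 of 26 in all. Rarres2, the secreted chemoattractant and adipokine chemerin, had levels of 2.26, 1.65 and 2.23 with propiconazole, 2.85, 2.77 and 2.80 with triadimefon and 3.05, 3.02 and 3.01 with DMSO. The triadimefon arrays lay close together and all 3 propiconazole arrays below them, with a difference of -0.76 (SE 0.09, adjusted p 2e-05, and 0.000121 without the block).

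Cxcl9, a T cell attractant that interferon gamma induces, had levels of 0.82, 0.71 and 1.17 with propiconazole, 1.33, 1.80 and 2.04 with triadimefon and 0.25, 0.54 and 0.64 with DMSO. Here triadimefon stood apart, with a rise of 1.24 against DMSO (adjusted p 4.1e-05), while propiconazole stood at 0.42 (adjusted p 0.0606). The compounds differed by -0.82 (SE 0.17, adjusted p 0.00439). Of 23 chemokine and cytokine genes 3 fell, the others being Cxcl16 (-0.36) and the inflammation brake Tnfaip3 (-0.38), and Il1r2 rose. Ubd, a ubiquitin-like modifier that interferon gamma and TNF induce, had levels of 1.57, 1.87 and 1.46 with propiconazole and 2.21, 2.80 and 2.08 with triadimefon, a difference of -0.73 (SE 0.13, adjusted p 0.00126). Of 24 interferon genes Stat2 rose (0.18) and Ifi27 fell (-0.20), 4.17% each way beside 2.53% higher and 2.06% lower of all genes. A dimmer probe set of Stat2 went the other way, at -0.09 (SE 0.05, unadjusted p 0.0954).

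Of 12 Cyp3a, Cyp2b and Cyp2c genes, many of them known targets of PXR and CAR, 1 was called between the compounds, and the median of the 12 against DMSO was 0.07 with propiconazole and 0.08 with triadimefon. Cyp3a23-3a1, the main PXR target of rat liver, had levels of 3.67, 3.50 and 3.56 with propiconazole, 3.68, 3.66 and 3.72 with triadimefon and 3.32, 2.52 and 2.52 with DMSO. Both compounds raised it, by 0.79 with propiconazole and 0.90 with triadimefon, and their difference of -0.11 had a 95% interval of -0.43 to 0.21. Cyp2c6v1 had levels of 3.05, 2.76 and 2.40 with propiconazole and 2.94, 2.63 and 2.51 with triadimefon, and rose by 1.31 with propiconazole and 1.27 with triadimefon against DMSO. Its difference was 0.05 (95% interval -0.22 to 0.31), below 0 under each of the other scalings. Abcc2, the canalicular export pump, rose by 0.95 with propiconazole and 0.91 with triadimefon and differed by 0.04 (95% interval -0.27 to 0.35), with the other sign under each of the other scalings. A missed threshold does not show that the compounds act alike. The 1 called gene of the 12 was Cyp2c11: this male-specific steroid hydroxylase had levels of 2.25, 1.98 and 2.52 with propiconazole and 2.56, 2.81 and 2.82 with triadimefon, against 2.78, 2.64 and 2.96 with DMSO. The difference was -0.48 (SE 0.08, adjusted p 0.000427). Cyp2b1 was not analysed here.

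Of 13 other constitutive P450 genes 0 were called by limma and 1 had an unadjusted p under 0.05, and of 15 genes for electron supply and heme only Cyb5b, a cytochrome b5, rose (0.27, adjusted p 0.000854). A second probe set of Cyb5b went the other way, at -0.19 (SE 0.05, unadjusted p 0.00114), so the direction of Cyb5b depends on the probe set. Conjugating enzymes split. Ugdh, which makes the glucuronic acid donor, rose (0.36, adjusted p 0.00291), as did Ugt2b10 (0.48), while Ugt2b1 fell (-0.37). Ugt2b1 had levels of 2.62, 2.51 and 2.79 with propiconazole, 2.82, 3.09 and 3.12 with triadimefon and 2.55, 2.31 and 2.50 with DMSO, so the compound nearer the vehicle was propiconazole. Sult1a1, a phenol sulfotransferase, had levels of 2.60, 2.67 and 2.87 with propiconazole and 2.98, 3.23 and 3.26 with triadimefon, and its difference of -0.45 (adjusted p 0.000313) was called without the block as well. Of 20 glutathione transferases 2 rose and 1 fell. Gstk1, the kappa form of mitochondria and peroxisomes, had levels of 2.28, 3.04 and 2.59 with propiconazole, 2.01, 2.21 and 2.01 with triadimefon and 1.54, 1.26 and 1.29 with DMSO. It differed by 0.56 (SE 0.12, adjusted p 0.00865), Gsto1 by 0.26 and Gstm3 by -0.48. Of 38 aldehyde and alcohol genes Akr7a3 and Tpmt (0.24) rose, and Ces2c, the acetyltransferase Nat1 (-0.24) and Aldh9a1 (-0.18) fell. Of 18 transporters the anion carrier Slc22a8 (-0.61, adjusted p 0.038) and Slc22a18 (-0.23) fell.

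Of 17 sterol synthesis genes 0 were called by limma and 3 had an unadjusted p under 0.05, with a median difference of 0.08 that was -0.03 with scaled arrays. Cyp51, the mammalian form of the fungal target, had levels of 2.99, 2.92 and 2.64 with propiconazole, 2.79, 2.62 and 2.62 with triadimefon and 2.18, 2.43 and 2.34 with DMSO. Both compounds raised it, by 0.53 with propiconazole and 0.36 with triadimefon, and differed by 0.17 (95% interval -0.02 to 0.36, adjusted p 0.365). Another Cyp51 probe set gave 0.23 (SE 0.08, unadjusted p 0.00575). Acat2, the first enzyme of the route, had levels of 1.90, 1.82 and 1.75 with propiconazole and 1.68, 1.60 and 1.66 with triadimefon without overlap, and its difference of 0.18 missed the threshold (adjusted p 0.1). Insig1, which retains the sterol sensor, differed by -0.12 (95% interval -0.25 to 0.02) and was raised by both compounds, by 0.39 with propiconazole and 0.51 with triadimefon. Of 13 genes for sterol sensing and transport Soat1 (0.23), which esterifies cholesterol, and Stard4 (0.20), a sterol carrier, rose. Srebf1, the master regulator of fatty acid synthesis, fell, with levels of 1.31, 1.72 and 1.65 with propiconazole and 1.72, 2.03 and 2.12 with triadimefon (difference -0.40, adjusted p 0.00255). The other 2 probe sets of Stard4 gave -0.02 (SE 0.04) and 0.09 (SE 0.05).

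Fatty acid synthesis genes showed 2 lower and 1 higher of 19. Scd, the stearoyl-CoA desaturase, had levels of 3.70, 3.37 and 3.18 with propiconazole, 3.78, 3.84 and 3.75 with triadimefon and 3.62, 3.55 and 3.20 with DMSO, a difference of -0.37 (SE 0.07, adjusted p 0.00323). It rose with triadimefon against DMSO (0.33) and not with propiconazole (-0.04, adjusted p 0.754). Fasn, fatty acid synthase, differed by -0.30 (adjusted p 0.0493) and Gpam, which starts glycerolipid synthesis, by 0.31. Scd2 was raised far above DMSO by both compounds, with levels of 2.52, 2.77 and 2.29 with propiconazole, 2.59, 2.73 and 2.46 with triadimefon and 0.59, 0.90 and 0.05 with DMSO. Its difference between them was -0.07 (95% interval -0.45 to 0.31). Of its dimmer probe sets the brightest gave 0.26 (SE 0.12, unadjusted p 0.0433) and the other 2 gave -0.04 and -0.09, so the direction for Scd2 depends on the probe set. The desaturases Fads1 (-0.13, 95% interval -0.34 to 0.08) and Fads2 (-0.13, -0.27 to 0.01) were not called. Of 24 triglyceride genes Plin2, the lipase Lipc (-0.34) and the carboxylesterase Ces2c (-0.38, adjusted p 0.000165) fell. Ces1d, another carboxylesterase, fell in both against DMSO, by 1.73 with propiconazole and 1.52 with triadimefon, and the difference between the compounds was not called (-0.20, 95% interval -0.62 to 0.21). Apoa5, which speeds triglyceride clearance, rose (0.42) and Mttp, which loads lipoproteins, fell (-0.24) among 15 lipoprotein genes. Apoa5 fell with triadimefon against DMSO (-0.57) and stood at -0.15 with propiconazole, which was not called.

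Of 16 bile acid genes Acot8 alone was called. Baat, which joins bile acids to taurine and glycine, had levels of 0.61, 1.06 and 0.99 with propiconazole and 0.99, 1.48 and 1.47 with triadimefon, and its difference of -0.42 missed the threshold (adjusted p 0.0514). Slc27a5, which activates bile acids, differed by -0.40 (95% interval -0.78 to -0.02) and Cyp7a1, the rate-limiting enzyme of their synthesis, by 0.06 (-0.47 to 0.58). Asgr1, the asialoglycoprotein receptor, was the 1 of 13 hepatocyte markers called, with levels of 1.52, 0.90 and 1.02 with propiconazole, 1.83, 1.46 and 1.48 with triadimefon and 1.77, 1.53 and 1.27 with DMSO (difference -0.45, adjusted p 2.8e-05). It fell with propiconazole against DMSO (-0.38), and with triadimefon it stood at 0.07. Of 41 glucose genes Fbp1, of gluconeogenesis (-0.36), and the growth factor Igf1 (-0.33) fell, and Pfkfb3, which drives glycolysis, rose (0.24, but -0.03 with SE 0.06 by another probe set). That is 2.44% higher and 4.88% lower, beside 2.53% and 2.06% of all genes. In the tricarboxylic acid cycle Aco1, the cytosolic aconitase and iron sensor (-0.36), and Cs, citrate synthase (-0.12), fell, 2 of 24. Another probe set of Cs, brighter on these 6 arrays, went the other way at 0.15 (SE 0.05, unadjusted p 0.00386). Hsd17b2 (0.42), which inactivates sex steroids, Hal (0.23), which breaks down histidine, and the retinoic acid hydroxylase Cyp26a1 (0.33) rose, each as the only raised gene of its list. Cyp26a1 did not have the same direction in all 3 codes and was dim, with a mean of -0.06 over the 6 arrays. The retinal reductase Dhrs4 fell (-0.32), while a dimmer probe set of it gave -0.01 (SE 0.04). Rplp0 was the 1 of 16 ribosomal protein genes called, at 0.11, but on the values as deposited its difference was -0.13. The whole list turned with it: 14 of the 16 lay above 0 in the main fit, and all 16 lay below 0 as deposited, median-centred or scaled. By limma 0 genes were called among 44 of the respiratory chain, 24 nuclear receptors and liver transcription factors, 30 of the proteasome, 22 of autophagy and 17 of metal handling. An unadjusted p under 0.05 was found for 0, 4, 1, 5 and 3 genes of these lists in that order.

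**Figure D3:**
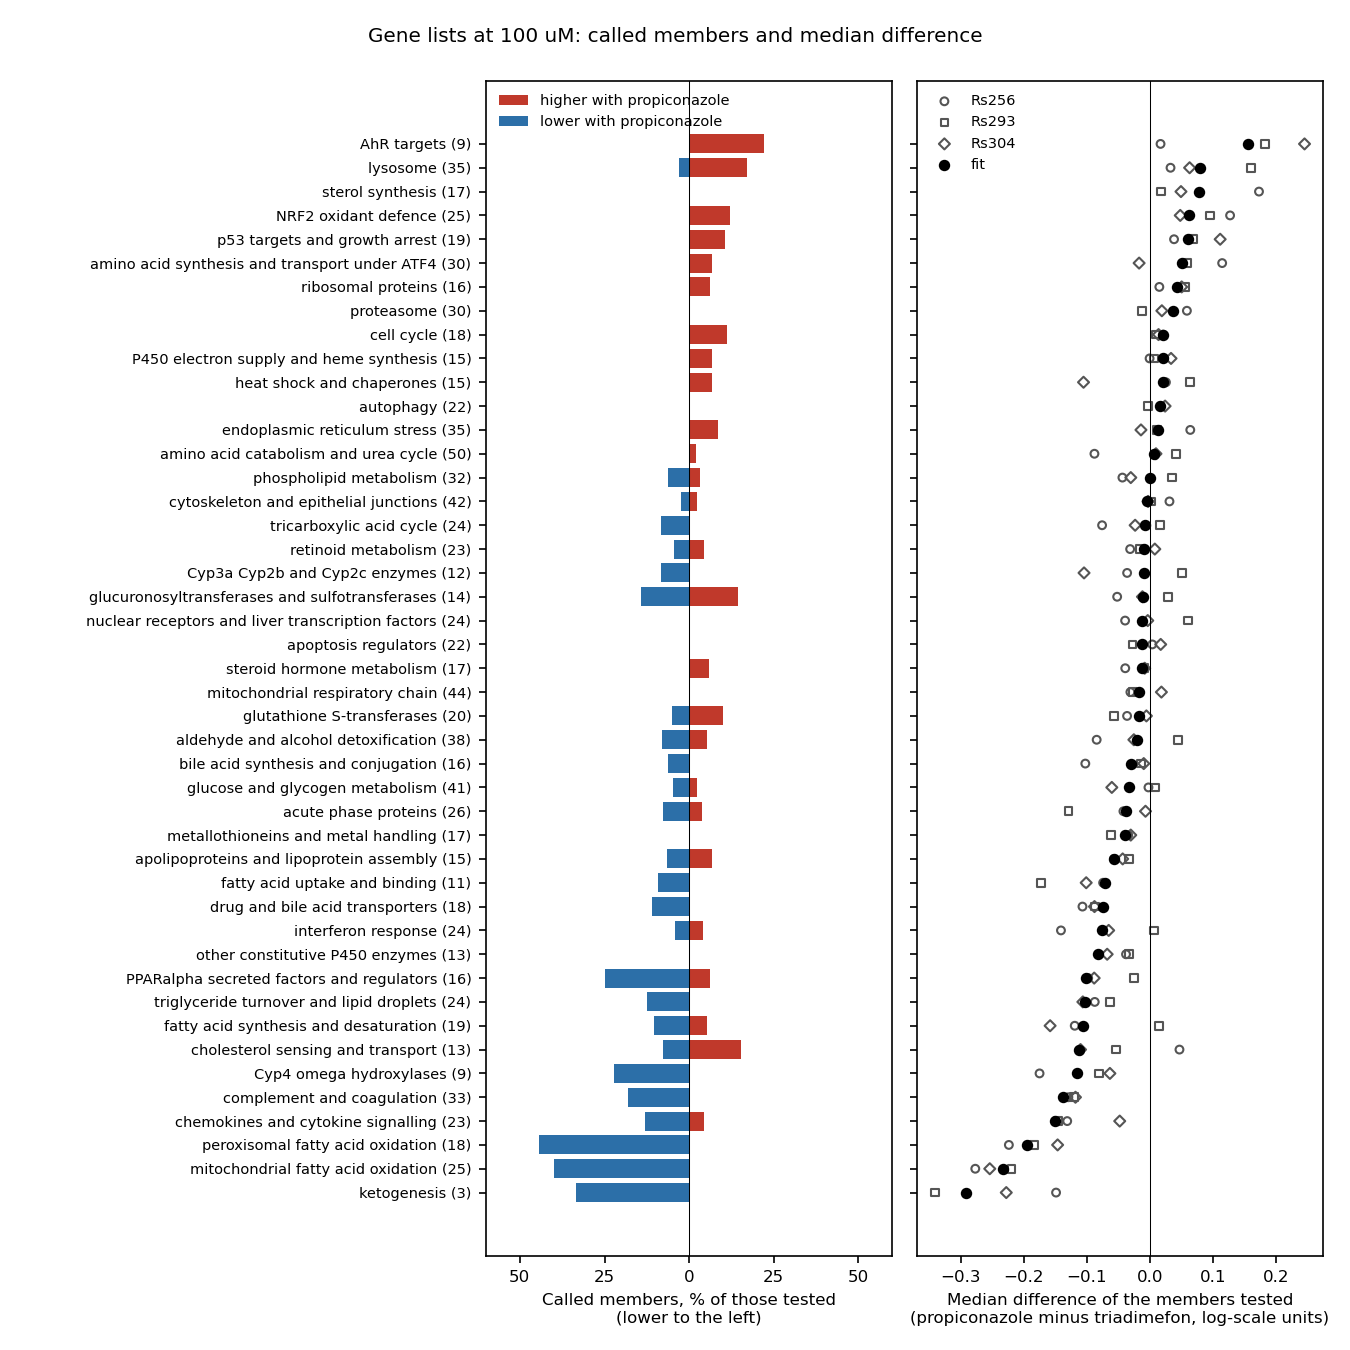
For each gene list (number of genes tested in brackets) the left panel shows the percentage of tested members called higher (red, to the right) and lower (blue, to the left) with propiconazole, and the right panel the median difference of the members (propiconazole minus triadimefon, units of the log scale) in the fit and within each code. The fatty acid oxidation lists at the bottom have 40.0% and 44.4% of their members lower, and their medians lie below 0 in all 3 codes.

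Where each compound stood against the vehicle is given next, side by side, since both are set against the same 3 DMSO arrays and these comparisons are not independent. Against DMSO 3075 genes (29.3%) were called with propiconazole, 1644 higher (15.7%) and 1431 lower (13.6%). With triadimefon 1239 (11.8%) were called, 646 higher (6.16%) and 593 lower (5.65%). Cyp4a3 fell by 2.01 (SE 0.17) with propiconazole and by 0.94 (SE 0.17) with triadimefon. Angptl4 fell by 1.86 with propiconazole and by 0.94 with triadimefon, and Vnn1 fell by 1.22 with propiconazole and by 0.57 with triadimefon. Sfn rose by 1.35 with propiconazole and by 0.44 with triadimefon, and Gstk1 rose by 1.27 with propiconazole and by 0.72 with triadimefon. For other genes propiconazole alone was called against DMSO. Hspb1 stood at 0.52 with propiconazole and 0.01 with triadimefon, and Il1r2 stood at 0.67 with propiconazole and -0.03 with triadimefon. Cyp2c11 stood at -0.54 with propiconazole and -0.06 with triadimefon. For Cxcl9, Scd and Ugt2b1, described above, triadimefon alone was called against DMSO. So it was for Gstm3, at -0.00 with propiconazole and 0.48 with triadimefon, for Lpcat3, at -0.04 with propiconazole and 0.24 with triadimefon, and for Aco1, at -0.08 with propiconazole and 0.28 with triadimefon.

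**Figure D4:**
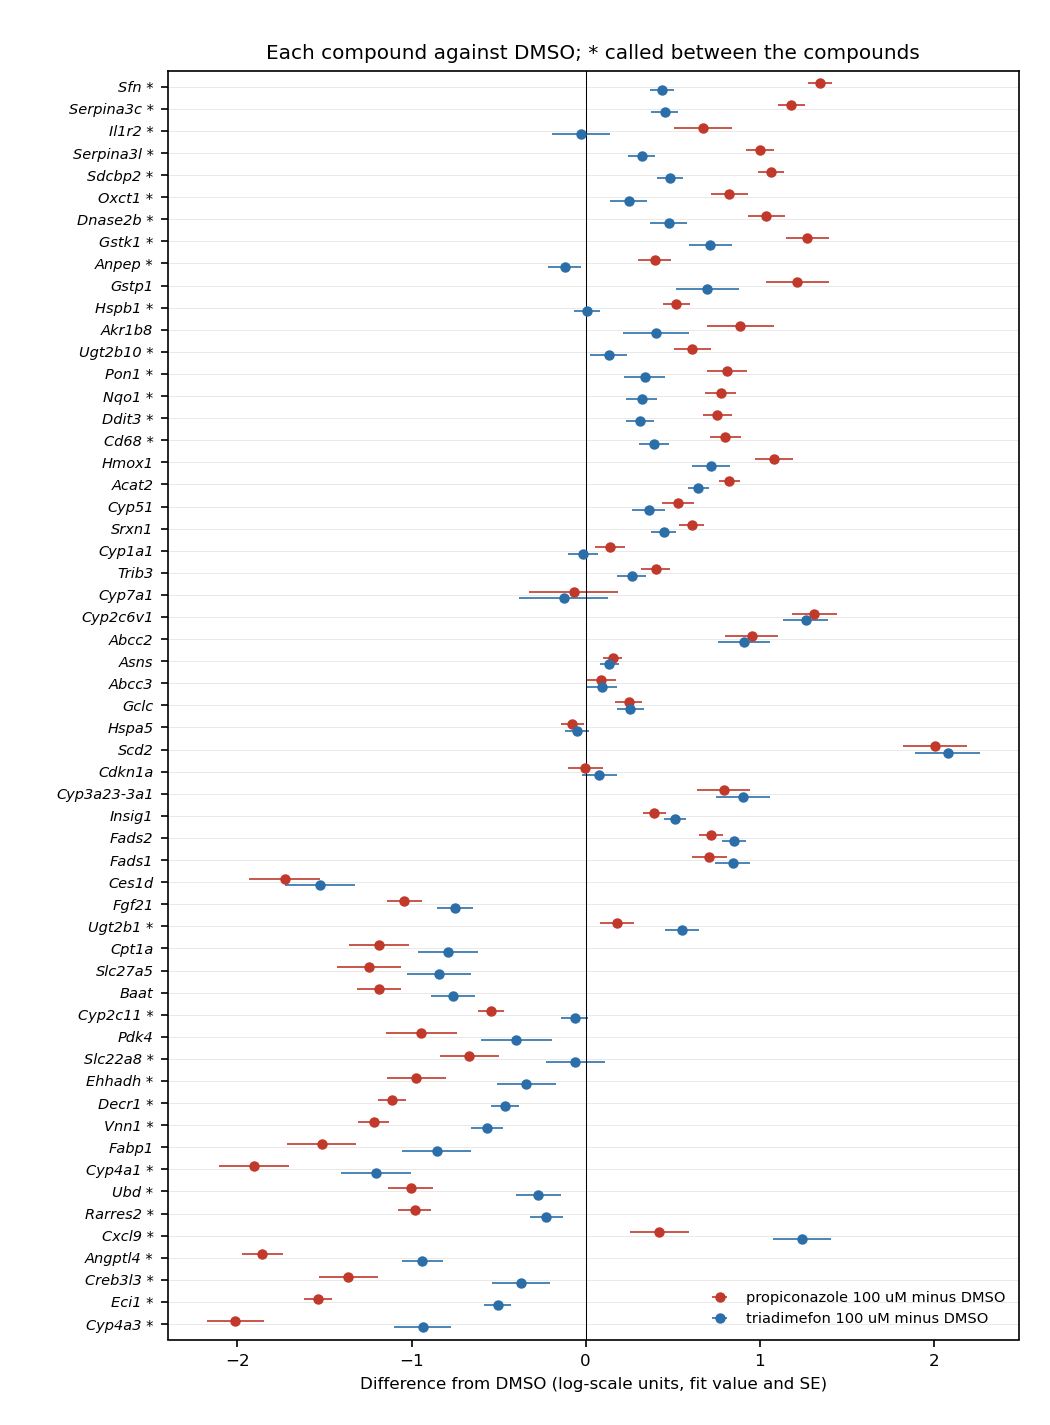
Fit values with their SE (units of the log scale) of propiconazole at 100 uM minus DMSO (red) and triadimefon at 100 uM minus DMSO (blue), for the leading genes and a set of named genes, sorted by the difference between the compounds; a star marks genes called between them. Cyp4a3, Angptl4 and Eci1 lie below 0 for both compounds with propiconazole further down, Cxcl9 is above 0 mainly with triadimefon, and Scd2 is near 2 with both.

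At the lower doses the 2 compounds were not separated by the fit. At 30 uM 0 genes were called by limma (0%), with 210 at an unadjusted p under 0.05, and at 10 uM 0 genes were called (0%), with 33. Fewer genes than the 524 expected from evenly spread p-values reached that p at either dose, so 524 is no firm reference for this fit. These counts do not show that the compounds act alike. Eci1 differed by 0.00 (SE 0.08) at 10 uM, -0.17 (SE 0.08) at 30 uM and -1.03 at 100 uM. For Cyp4a3 the differences were 0.01, -0.19 and -1.07 at 10, 30 and 100 uM (SE 0.17 at the lowest dose). For Angptl4 they were 0.08, 0.01 and -0.92, and for Sfn 0.00, -0.03 and 0.91. The list medians of mitochondrial oxidation genes were -0.01 at 10 uM, -0.01 at 30 uM and -0.23 at 100 uM.

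The change of the difference between 10 and 100 uM was tested in itself, and 66 genes (0.629%) were called, 36 (0.343%) with a higher and 30 (0.286%) with a lower difference at 100 uM. For Eci1 the change was -1.03 (SE 0.11, adjusted p 1.12e-05), for Sfn 0.90 (adjusted p 1.12e-05), for Cyp4a3 -1.08 (adjusted p 0.0257) and for Serpina3c 0.84 (adjusted p 0.000145). Cyp2c11 changed sign with dose, at 0.22 at 10 uM (SE 0.08), 0.19 at 30 uM and -0.48 at 100 uM, and the change of -0.70 was called (adjusted p 0.00113). Without the block 2 genes were called for this change, and 4 on the values as deposited.

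**Figure D5:**
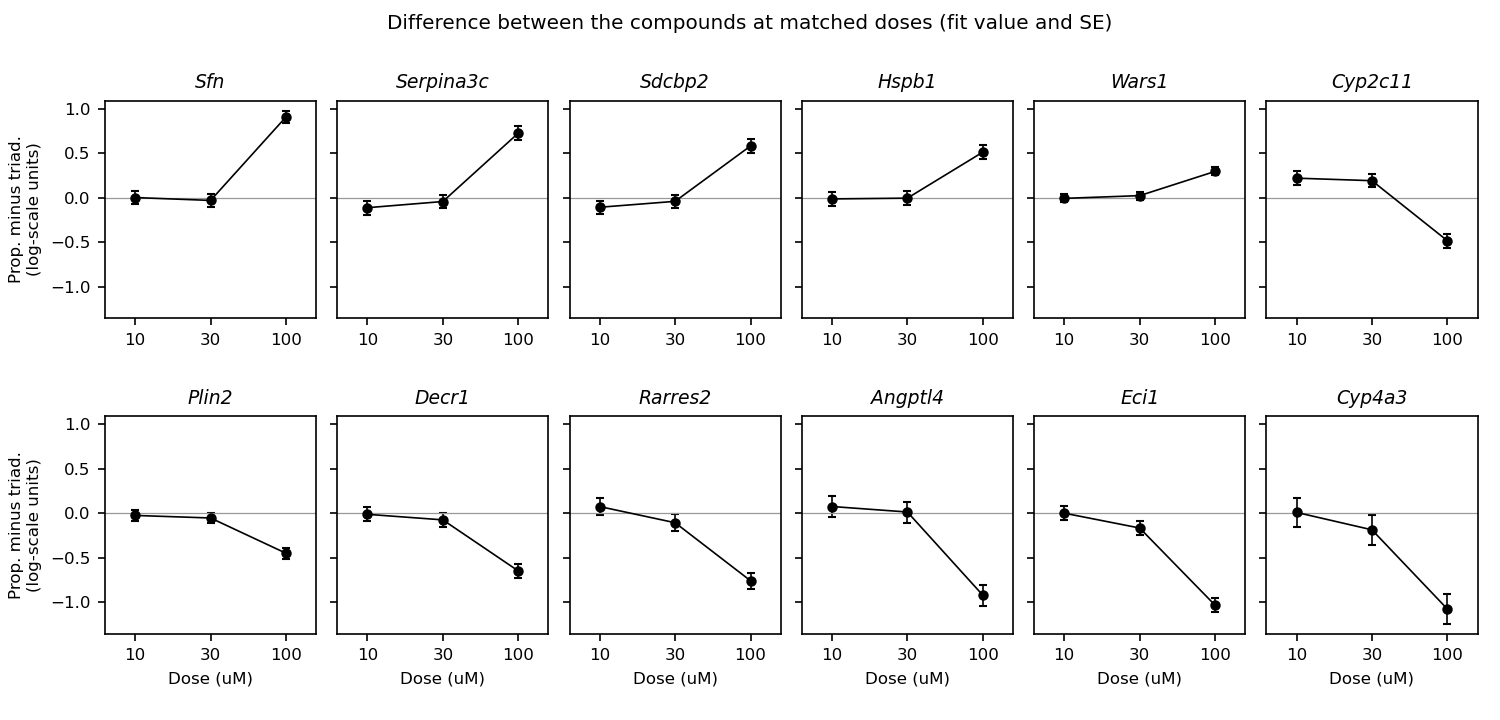
Difference between propiconazole and triadimefon (fit value and SE, units of the log scale) at 10, 30 and 100 uM for 12 genes. Differences at 10 and 30 uM lie near 0 and part at 100 uM, upward for Sfn, Serpina3c, Sdcbp2, Hspb1 and Wars1 and downward for Plin2, Decr1, Rarres2, Angptl4, Eci1 and Cyp4a3, and Cyp2c11 crosses 0.

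RNA quality and cell markers were read in the same 6 arrays. Array SDs lay between 0.677 and 0.715 for propiconazole and between 0.665 and 0.754 for triadimefon. The 3 prime minus 5 prime difference of the Actb control probe sets, a sign of RNA length, averaged 0.65 ± 0.08 for propiconazole and 0.85 ± 0.10 for triadimefon (SD, n = 3 each, difference -0.20, exact permutation p 0.1, two-sided, the smallest 3 against 3 arrays can give). For Gapdh it averaged 0.19 ± 0.09 for propiconazole and 0.26 ± 0.04 for triadimefon (SD, n = 3 each, exact permutation p 0.2, two-sided). The part of RNA length in the differences above was not tested. Of 13 hepatocyte markers on the array 11 were above the array median on all 6 arrays, with mean levels of 2.53 to 2.71 for propiconazole and 2.53 to 2.79 for triadimefon. Of 20 stellate markers 6, of 13 endothelial markers 2 and of 10 cholangiocyte markers 4 were above it on all 6 arrays. The near-equal hepatocyte marker means hold after quantile normalization, where the median difference of the 13 was -0.01 with 8 below 0. As deposited, median-centred and scaled it was -0.20, -0.19 and -0.27, with all 13 below 0.

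Of the 111 called genes named here, 18 were also called without the block: Sfn, Anpep, Ddit3, Wars1, Cyb5b and Soat1 on the higher side and Cyp4a3, Eci1, Angptl4, Rarres2, Decr1, Plin2, Sult1a1, Acadl, Hsd17b4, Hadh, Acaa2 and Cpt2 on the lower. Of the 90 among them that the naming rule chose, Cyp4a3, Eci1 and Sfn were called in addition on the values as deposited, without each code and without each single array of the 2 groups. Each still missed the threshold in some other alternative. Their highest adjusted p by limma was 0.0624 for Cyp4a3, 0.0937 for Eci1 and 0.37 for Sfn. Over all genes the count depended on single codes, with 149 called without Rs293, 46 without Rs304 and 638 without Rs256. Leaving out 1 array at a time gave 962 without the Rs256, 241 without the Rs293 and 330 without the Rs304 propiconazole array, and 506 without the Rs256, 260 without the Rs293 and 200 without the Rs304 triadimefon array.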

How the data were processed

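RNA of primary rat hepatocytes was measured on Affymetrix Rat Genome 230 2.0 arrays. The authors deposited a table of log-like scores for 31099 probe sets on 35 arrays, centred near 0; its log base, background correction and summary method are not given in the sources used here. Probe sets were named from the platform annotation (20826 name 1 gene, 436 several, 9780 none, besides 57 controls). The scores were quantile-normalized, the probe set of highest mean was kept for each of 14217 genes, and genes above the array median on at least 2 arrays were tested (10490).

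limma 3.58.1 in R 4.3.3 was fitted to all 35 arrays with group means and the code as a replicate block, two-sided, with intervals of 95%. Arrays of propiconazole and triadimefon deviated together within a code (r across genes 0.74, 0.46 and 0.57, against -0.59 to 0.21 between codes), and the code is in the labels. Each group's mean was taken out first, which pulls the values between codes down when those within codes are positive. The contrast is thus partly built in and does not by itself justify the block. Between Rs293 and Rs304 r was 0.21 both ways, and Rs256 against either lay between -0.59 and -0.45. With 100 genes each changed by 0.25 and 0.5 units in data simulated for this comparison over 10490 genes, 74% and 97% were called, with 9 false calls. The simulated noise followed the block model and was independent between genes and arrays. These figures therefore leave out noise that an array shares across genes. The number of arrays limits the precision.

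Genes named are the 12 largest differences each way, up to 3 called genes of each of 45 lists and a set of fixed genes. Other called members of lists (such as Hadh, Hrg or Neu1) were added after their values were seen. Members and lists were chosen with earlier results of these data known. Alternatives were other scalings, filters and probe set rules, no block, fewer groups and leaving out arrays; their use on the gene lists was added after seeing the data. A gene's promoter was taken from RefSeq (GRCr8). A few genes of the fixed set are not reported here.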

Additional observations from a re-analysis of the deposited data

Results flagged for a closer look

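For 30 of the named genes the difference between propiconazole and triadimefon was not the same at 10 and at 100 uM, by limma's test of that change (the difference at 100 uM minus the difference at 10 uM, adjusted over 10490 genes). Among genes of lipid handling the change was -1.08 for Cyp4a3, -1.03 for Eci1, -0.995 for Angptl4, -0.66 for Vnn1 and -0.64 for Decr1. Smaller changes were found for Srebf1 (-0.49), Plin2 (-0.42), Acadl (-0.40), Ces2c (-0.39), Hsd17b4 (-0.35), Stard4 (0.29) and Soat1 (0.25). Among secreted and immune genes it was -0.83 for Rarres2, -0.77 for Ubd, -0.38 for Cxcl16, 0.84 for Serpina3c and 0.75 for Serpina3l. Enzymes of steroid, drug, sugar and amino acid metabolism moved by -0.70 (Cyp2c11), -0.46 (Sult1a1), -0.44 (Fbp1), 0.45 (Hsd17b2), 0.29 (Cyb5b) and 0.23 (Hal). The remaining changes were 0.90 for Sfn, 0.69 for Sdcbp2, 0.65 for Dnase2b, 0.53 for Hspb1, 0.30 for Wars1, 0.28 for Ctsb and -0.49 for Asgr1. The change shares the arrays at 100 uM with the comparison of the report and is no independent evidence for it.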

How the results depend on the processing

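The count of 481 genes at 100 uM became 53 with no replicate block, 69 on the values as deposited, 7 with both (chosen after seeing the data), 88 with median centring and 151 with scale normalization. It was 939 of 17973 with each probe set a feature, 276 from the 6 arrays alone with the block and 6 without it, and 237 over the 3 doses together. Of those 276 genes 99 were higher and 177 lower, and 194 were among the 481. Leaving out a code or an array gave 46 to 962 genes. All 53 genes called without the block were among the 481. Counts within 1.5 times came from the filters on dim genes, from trend and robust in eBayes and, also added later, without the array of widest spread. Of the 111 called genes named, 18 were also called without the block.

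The 66 genes for the change from 10 to 100 uM became 2 with no replicate block, 4 as deposited, 5 with median centring, 11 with scale normalization, 162 with each probe set, 43 from the groups compared with the block and 1 without it. Leaving out a code or an array gave 2 to 318, with 318 without the Rs256 and 31 without the Rs293 propiconazole array at 100 uM, 141 without the Rs256 and 31 without the Rs304 triadimefon array, 14 without Rs293 and 2 without Rs304. At 10 uM the groups compared alone with the block gave 11 genes.

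Differences changed sign on the values as deposited, with median centring and with scale normalization, in that order, for Rplp0 (-0.13, -0.12 and -0.20), Cyp2c6v1 (-0.14, -0.13 and -0.20), Abcc2 (-0.11, -0.10 and -0.17), Asns (-0.083, -0.072 and -0.13), Cyp1a1 (-0.019, -0.0077 and -0.077) and Srxn1 (-0.012, -0.0010 and -0.048). Without the block the values as deposited gave the same. Cyp51 was -0.0067 as deposited and -0.062 with scale normalization, and Ctsb -0.022 with scale normalization. Leaving out a code or an array gave differences on both sides of 0 for Scd2 (-0.14 to 0.038), Cyp2c6v1 (-0.065 to 0.13), Cyp7a1 (-0.17 to 0.29), Abcc2 (-0.033 to 0.096), Abcc3 (-0.12 to 0.086), Gclc (-0.078 to 0.045), Asns (-0.011 to 0.064), Hspa5 (-0.063 to 0.038) and Cdkn1a (-0.21 to 0.00082). The cause was not tested. With 3 arrays a group, simulated differences of 0.25 units were called for 74% of genes with the block and 43% without it, so smaller differences could be missed. The simulated data followed the block model, so the fit without the block calls fewer of them by construction. Why 481 calls became 53 without the block was not tested.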

Other observations

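Probe sets that the annotation gives no gene also separated the compounds. Of 3407 such probe sets tested as features of their own, 38 were called higher and 88 lower with propiconazole (3.7%). Over all 17973 probe sets 541 were higher and 398 lower (5.22%). The largest was 1370310_at, with a difference of -1.23 (SE 0.11, adjusted p 5.3e-07), more than that of any named gene. Another lower one was 1392569_at at -0.52 (SE 0.11, adjusted p 0.00676). On the higher side stood 1393018_at at 0.39 (SE 0.05, adjusted p 1.93e-05) and 1397815_at at 0.37 (SE 0.08, adjusted p 0.00466).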
